A study of Mus musculus with 35 samples.

Results

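Lysosomal transcripts were followed in microglia, the resident macrophages of the brain, sorted from 3 brain regions of the mouse. The set holds 42 genes chosen by name as lysosomal genes, with earlier results of these data known: 12 proteases, 9 glycosidases, 7 lipid hydrolases, lipid carriers and cofactors, 9 membrane proteins, 4 genes of the proton pump and the transcription factor Tfeb. All 42 were found among the 21236 genes of the count table, with symbols matched to Ensembl identifiers in the GRCm38 GENCODE annotation. The samples came from 12 adult mice, 6 male and 6 female, each heterozygous for Tmem119-2A-CreERT2 and for Ai14(RCL-tdTomato)-D and each treated with tamoxifen, so that Tmem119-expressing cells carried tdTomato and were collected by fluorescent activated cell sorting. Recombination depends on the Tmem119 gene in every group, and no sample from mice without the transgenes or without tamoxifen was analysed here. Midbrain (n = 12), striatum (n = 12) and prefrontal cortex (PFC, n = 11, 6 female and 5 male) were taken from the same animals, giving 35 samples. Regions were compared to ask whether microglial transcripts differ by place, and the sexes to ask whether they differ in males and females.

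The lysosome is the acidic compartment in which a cell breaks down what it has engulfed and its own worn parts. Its soluble hydrolases work at low pH, which the V-type proton pump maintains, and its membrane proteins shield the membrane, carry lipids and pass ions. Microglia take up debris, dying cells and synapses and are rich in these transcripts. Some cathepsins also have roles outside general breakdown: cathepsin S trims the invariant chain of MHC class II, and cathepsin C activates other proteases by removing dipeptides. TFEB, the product of Tfeb, binds the E-box CACGTG in the promoters of many lysosomal genes, where the longer form TCACGTGA is its favoured site.

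The promoters of the set were read from RefSeq (GRCm38.p6), from 250 bases before to 50 bases after the transcription start, and 38 of the 42 genes had an entry. The RefSeq start can lie inside the GENCODE gene span given below, as for Ctsl, Atp6v1a and Mcoln1. Bases before the start can then fall within that span. CACGTG, which reads the same on both strands, was present in 12 of these 38 promoters (31.6%), against 7.24% of the 27025 genes with a promoter of this length and 9.67% of the 12442 of them in the count table. The 12 were Ctsd, Ctsf, Ctsl, Gaa, Gla, Glb1, Naglu, Lamp1, Cd164, Mcoln1, Atp6v0d1 and Atp6v1a, and Lamp1 held 4 copies. TCACGTGA, which contains CACGTG, was found in 6 of the 38 (15.8%), against 1.01% of all promoters. These 6 were Ctsd, Gla, Cd164, Mcoln1, Atp6v0d1 and Atp6v1a. Median GC content was 56.3% in the set and 60% in the genes of the count table. The windows below, 30 bases each, show the E-box of members whose transcript differed between regions in the results that follow. Each is written 5′ to 3′ on the gene's strand with CACGTG in capitals.
Ctsf, chr19:4855074-4855103, plus strand, 79 bases before the start: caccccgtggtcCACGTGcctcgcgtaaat
Ctsl, chr13:64370739-64370768, minus strand, 236 bases before the start: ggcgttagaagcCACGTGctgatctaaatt
Gaa, chr11:119267811-119267840, plus strand, 140 bases before the start: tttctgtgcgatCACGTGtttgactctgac
Glb1, chr9:114401018-114401047, plus strand, 48 bases before the start: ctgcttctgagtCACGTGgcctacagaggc
Cd164, chr10:41519401-41519430, plus strand, 87 bases before the start: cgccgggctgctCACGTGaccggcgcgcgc
Mcoln1, chr8:3500436-3500465, plus strand, 71 bases before the start: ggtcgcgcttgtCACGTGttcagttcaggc
Mcoln1, chr8:3500462-3500491, plus strand, 45 bases before the start: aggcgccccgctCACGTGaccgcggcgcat
Atp6v1a, chr16:44139373-44139402, minus strand, 131 bases before the start: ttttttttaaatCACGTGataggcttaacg

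The samples held 37680501 to 54131421 counts in genes, and 3 counts correspond to between 0.0554 and 0.0796 CPM (counts scaled to library size, here with edgeR's TMM factors). Markers of microglia (12 genes) summed to between 42250 and 53870 CPM, and none of these genes was at 0 in any sample. Markers of neurons (10 genes) summed to at most 28.3 CPM, those of astrocytes (10 genes) to at most 579 CPM and those of oligodendrocytes (10 genes) to at most 854 CPM. The midbrain sample of mouse 6 stood apart with 123 CPM in 7 markers of border macrophages, where the next highest sample had 18.7 CPM. The PFC sample of mouse 1 had 44.5 CPM in 7 markers of monocytes and neutrophils, against 7.91 CPM in the next. The striatum sample of mouse 3 is placed by its GEO label and library number, because its column is named for the PFC. Members whose calls change without any of these 3 samples are given without them below.

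The 42 transcripts took 7.03 to 8.85% of all counts in a sample. Ctsd, which encodes the aspartic protease cathepsin D, alone took 2.16 to 3.24%. Per kb of exon sequence Ctsd was the most abundant member at 10783 mean CPM per kb, followed by Ctss (cathepsin S) at 8904 and Lgmn (legumain, an asparaginyl endopeptidase) at 1626. Tfeb stood at 11.3 mean CPM per kb, the 38th of the 42, and Gla (alpha-galactosidase A) was the lowest at 1.95. Summed over the set, the median level was 79607 CPM in midbrain (75089 to 90488), 77420 in striatum (72793 to 84400) and 74954 in PFC (68706 to 81897). These ranges overlap. Within mice, the PFC sum was below the midbrain sum in 11 of 11 mice, with a median difference of -6088 CPM, and the striatum sum was below it in 8 of 12. The sum is weighted to the most abundant members and does not describe the set evenly. Its mean was 79883 CPM in midbrain and 75136 in PFC, where Ctss alone had means of 14057 and 11243 and Ctsd of 25523 and 24661.

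**Figure D1:**
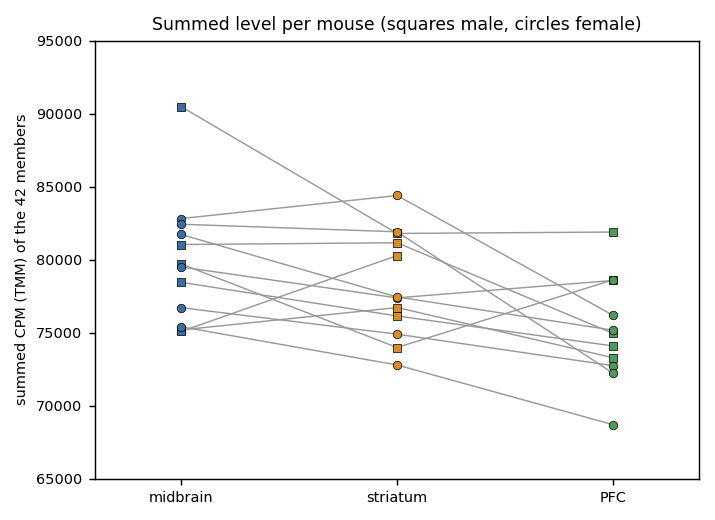
Summed CPM (TMM-scaled, y axis not starting at 0) of the 42 lysosomal transcripts in midbrain, striatum and PFC, with lines joining the samples of 1 mouse. The PFC point lies below the midbrain point in all 11 mice with both, while striatum lies below midbrain in 8 of 12. The sum is weighted to the most abundant members, such as Ctsd and Ctss.

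An effect of brain region was found for 13 of the 42 members (edgeR quasi-likelihood F-test with sex in the model, Benjamini-Hochberg adjusted p under 0.05 over all genes), where 8.89% of all 21236 genes were called. When the model held mouse as a block instead of sex, 18 members were called, beside 14% of all genes. Against midbrain, 8 members differed in PFC, 2 higher and 6 lower, beside 2.88% and 3.64% of all genes. In striatum 11 members differed from midbrain, 7 higher (all genes, 4.18%) and 4 lower (all genes, 3.27%). Both comparisons share the midbrain samples. Among the 3967 genes with a mean of at least 40 CPM, of which 41 are members, 3.93% were higher and 4.97% lower in PFC, and 5.39% and 7.08% in striatum. The median log2 fold change of the set was -0.026 for PFC and 0.019 for striatum, against 0.011 and 0.013 for all genes, so the members moved in both directions around an almost level median. In all, 15 members had a call for region or for a pair of regions, and all are protein-coding genes. In GRCm38 the called proteases are Ctsa (ENSMUSG00000017760) at chr2:164832873-164841032, Ctsc (ENSMUSG00000030560) at chr7:88278085-88310888, Ctsf (ENSMUSG00000083282) at chr19:4855130-4860918, Ctsh (ENSMUSG00000032359) at chr9:90054152-90076089, Ctsl (ENSMUSG00000021477) at chr13:64359337-64370890, Ctss (ENSMUSG00000038642) at chr3:95526786-95556403, Ctsz (ENSMUSG00000016256) at chr2:174427493-174439039 and Tpp1 (ENSMUSG00000030894) at chr7:105744811-105752235. The glycosidases are Gaa (ENSMUSG00000025579) at chr11:119267887-119285454, Glb1 (ENSMUSG00000045594) at chr9:114401076-114474898 and Gusb (ENSMUSG00000025534) at chr5:129989011-130003049. The membrane proteins are Cd68 (ENSMUSG00000018774) at chr11:69664213-69666153, Cd164 (ENSMUSG00000019818) at chr10:41519414-41531048 and Mcoln1 (ENSMUSG00000004567) at chr8:3500457-3515232, and the pump subunit is Atp6v1a (ENSMUSG00000052459) at chr16:44085402-44139705. In bulk RNA from sorted cells, a smaller share of cells with a transcript and less of it per cell cannot be told apart.

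**Figure D2:**
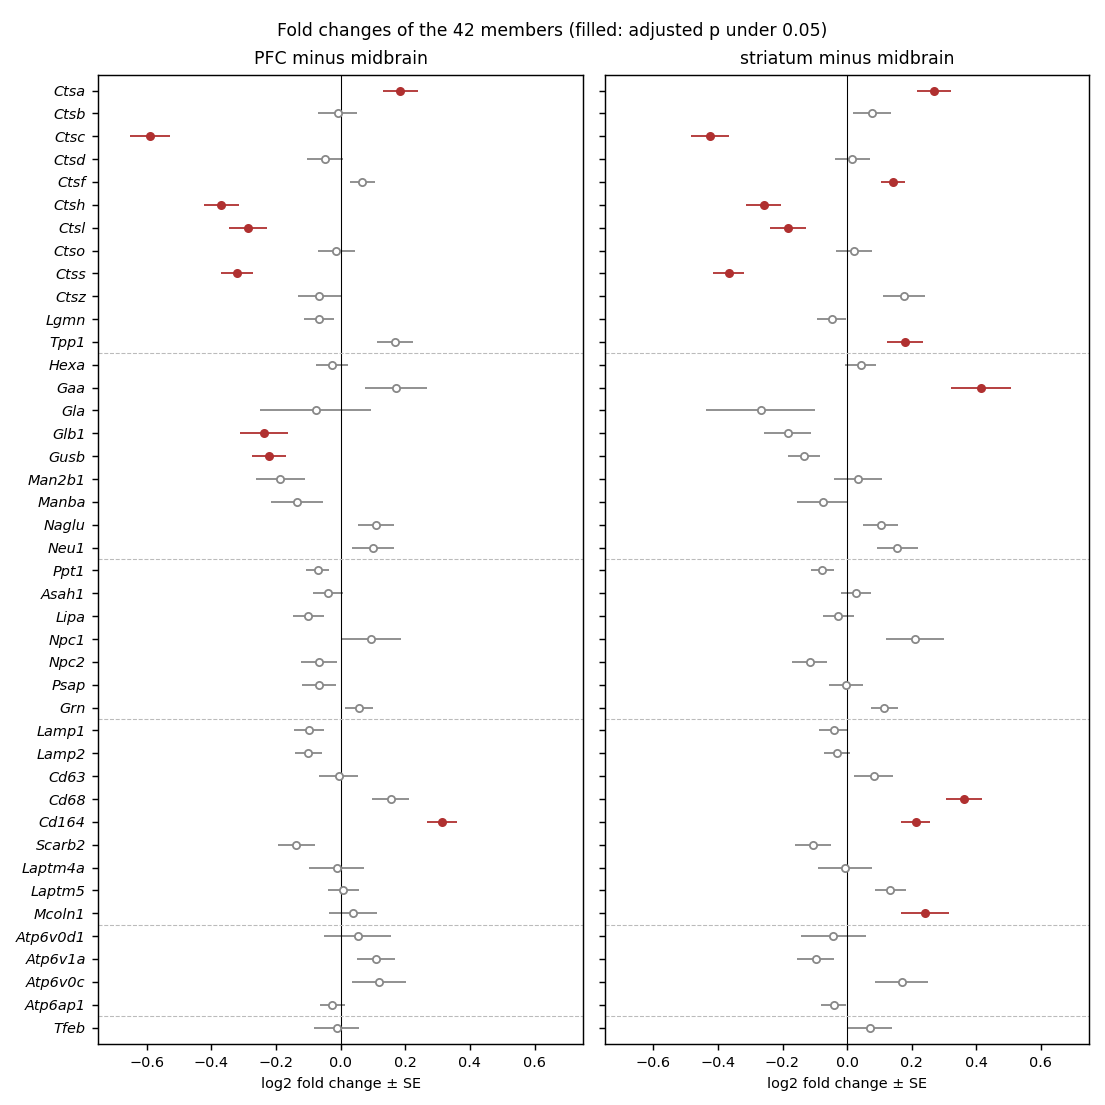
Log2 fold change with its standard error for each of the 42 members, PFC minus midbrain (left) and striatum minus midbrain (right), grouped by dashed lines into proteases, glycosidases, lipid hydrolases with carriers and cofactors, membrane proteins, proton pump and Tfeb. Filled points have an adjusted p under 0.05: 8 on the left and 11 on the right, most of them proteases.

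The 4 members higher in midbrain than in both other regions, Ctsc, Ctsh, Ctsl and Ctss, all encode cysteine cathepsins. The other cysteine cathepsins of the set, Ctsb, Ctsf, Ctso and Ctsz, were not called higher in midbrain. Ctsf was called higher in striatum, and Ctsb, Ctso and Ctsz were not called in a pair of regions. Ctsc (cathepsin C, also called dipeptidyl peptidase I) had the largest difference of the set. Its level ran from 1047 to 1651 CPM in midbrain (median 1327), from 849 to 1183 in striatum (median 1034) and from 795 to 1064 in PFC (median 880.4). Of the 12 midbrain samples, 11 lay above every PFC sample and 11 above every striatum sample. The log2 fold change from midbrain was -0.59 ± 0.061 (SE) in PFC (edgeR adjusted p = 1.07e-08) and -0.42 ± 0.060 in striatum (edgeR adjusted p = 1.04e-05). It was lower in 11 of 11 and 12 of 12 mice. Region accounted for 75.8% of the sum of squares of its log2 CPM and mouse for 11.6%. The shares are not scaled to the number of levels, of which mouse has more than region.

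Ctss, whose product processes the MHC class II invariant chain in antigen presenting cells, was the second most abundant member per kb. It ranged from 12090.5 to 16058 CPM in midbrain (median 13907), from 9953 to 12299 in striatum (median 10925) and from 9712 to 13099.8 in PFC (median 11112). Again 11 of the 12 midbrain samples were above all samples of each other region, and the lowest midbrain sample fell inside both ranges. The log2 fold change was -0.32 ± 0.049 (SE) in PFC (edgeR adjusted p = 1.80e-05) and -0.37 ± 0.048 in striatum (edgeR adjusted p = 3.57e-06), with the same direction in every mouse. Mice 1 to 6 alone gave -0.20 for PFC, and mice 7 to 12 gave -0.43.

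Ctsh encodes cathepsin H, an aminopeptidase. Its range was 1008 to 1457 CPM in midbrain (median 1113), 831 to 1099.8 in striatum (median 949) and 771 to 1035 in PFC (median 862). The midbrain lay above all PFC samples in 11 of 12 cases and above all striatum samples in 7 of 12. From midbrain the log2 fold change was -0.37 ± 0.055 (SE) in PFC (edgeR adjusted p = 1.19e-05) and -0.26 ± 0.054 in striatum (edgeR adjusted p = 0.00175). The striatum value was -0.38 in mice 1 to 6 (edgeR adjusted p = 0.0405), but -0.15 and not called in mice 7 to 12 (0.131).

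Ctsl, for the endopeptidase cathepsin L, showed the same order with more overlap. It ran from 1121 to 1422 CPM in midbrain (median 1259.7), from 971 to 1267 in striatum (median 1110.0) and from 869 to 1311 in PFC (median 1022). Ctsl had a log2 fold change of -0.29 ± 0.058 (SE) in PFC (edgeR adjusted p = 9.15e-04) and -0.18 ± 0.056 in striatum (edgeR adjusted p = 0.0398). The striatum call was lost without the striatum sample of mouse 3 (edgeR adjusted p = 0.0554) and without the midbrain sample of mouse 6 (edgeR adjusted p = 0.0689), and with mice 2, 4, 9, 11 or 12 left out. Its direction held in all 12 mice. With mouse as a block, Ctsl in striatum had an edgeR adjusted p of 0.00674.

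Between PFC and midbrain the sugar hydrolases called were both higher in midbrain: Gusb (beta-glucuronidase) and Glb1 (beta-galactosidase). Gusb ran from 301 to 377 CPM in midbrain (median 329), 270.2 to 387 in striatum (median 296) and 259 to 336 in PFC (median 286), and 10 of 11 PFC samples were below every midbrain sample. Gusb had a log2 fold change in PFC of -0.22 ± 0.051 (SE, edgeR adjusted p = 0.00421), lower in 11 of 11 mice. In striatum it was -0.13 ± 0.050 (edgeR adjusted p = 0.102), and 0.00759 with mouse as a block. Glb1 ran from 91.6 to 132 CPM in midbrain (median 106), 78.0 to 115 in striatum (median 95.0) and 74.3 to 117 in PFC (median 89.3). For Glb1 the log2 fold change in PFC was -0.24 ± 0.074 (SE, edgeR adjusted p = 0.0443), but -0.070 in mice 1 to 6 and -0.40 in mice 7 to 12. That call was lost when any 1 of 10 of the 12 mice was left out, all but mice 1 and 3, with an adjusted p of up to 0.134. With mouse as a block, Glb1 in PFC had an edgeR adjusted p of 0.0413. Glb1 shares exon sequence on the same strand with Tmppe (median 20.7 CPM), so its counts are uncertain, and its region effect overall had an edgeR adjusted p of 0.0618, with 0.0371 without the striatum sample of mouse 3 and 0.0174 without the PFC sample of mouse 1.

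**Figure D3:**
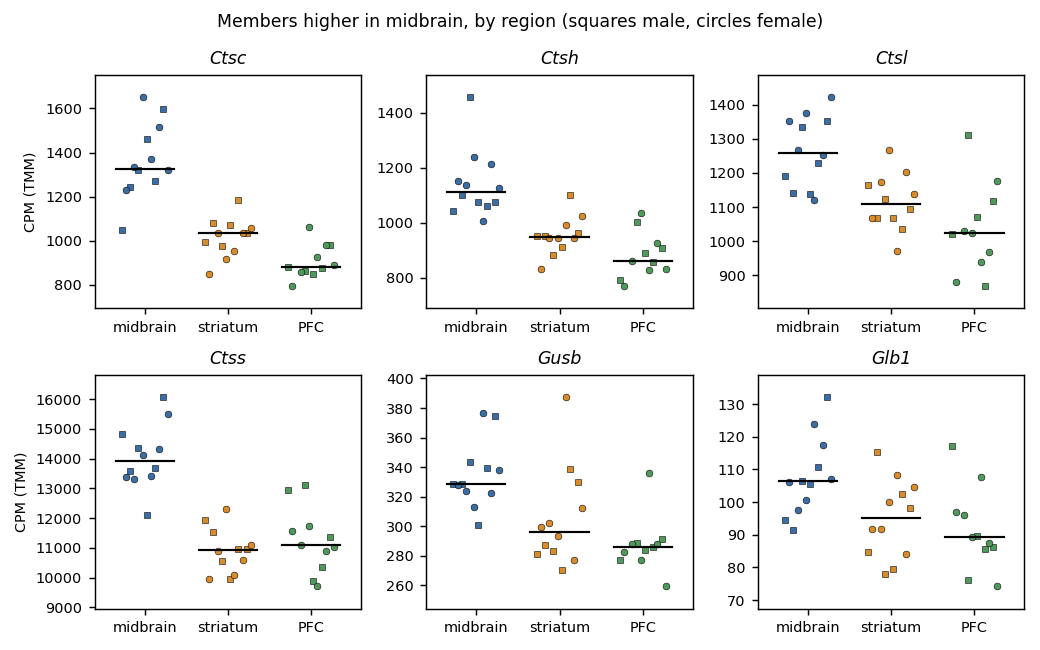
CPM (TMM-scaled, axes not starting at 0) of the 6 members called higher in midbrain than in PFC, per sample, with squares for males, circles for females and a line at the median. For Ctsc and Ctss, 11 of 12 midbrain samples lie above all striatum and all PFC samples, while Gusb and Glb1 overlap more.

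Ctsa and Cd164 were lower in midbrain than in both other regions. The study shows both for these samples, so they are not independent evidence of a direction. Ctsa encodes cathepsin A, a serine carboxypeptidase that also protects beta-galactosidase and neuraminidase 1 in a complex. Its level ran from 1467 to 2104 CPM in midbrain (median 1739), from 1863 to 2316 in striatum (median 2085) and from 1701 to 2223 in PFC (median 2002). From midbrain the log2 fold change was 0.27 ± 0.054 (SE) in striatum (edgeR adjusted p = 0.00124) and 0.18 ± 0.055 in PFC (edgeR adjusted p = 0.0334). It was higher in 12 of 12 mice in striatum and 10 of 11 in PFC. The PFC call was lost without mouse 1, 2, 3, 5, 6, 7, 9 or 10 (adjusted p up to 0.0905) and without the midbrain sample of mouse 6 (edgeR adjusted p = 0.0514). With mouse as a block, Ctsa in PFC had an edgeR adjusted p of 4.86e-04. Ctsa overlaps Neurl2 and Pltp on the other strand, at medians of 14.2 and 60.5 CPM, and how strand was counted is not given in the sources used here.

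Cd164 encodes endolyn, a sialomucin of the endosomal and lysosomal membrane. Like Mcoln1 and Atp6v1a, Cd164 carries TCACGTGA in a window shown above. It ran from 807 to 1056 CPM in midbrain (median 890.2), from 890.3 to 1169.8 in striatum (median 1039) and from 1019.9 to 1241 in PFC (median 1105). In 11 of 12 midbrain samples it was below every PFC sample. Cd164 had a log2 fold change of 0.31 ± 0.047 (SE) in PFC (edgeR adjusted p = 1.16e-05) and 0.21 ± 0.046 in striatum (edgeR adjusted p = 0.00263), higher in every mouse in both.

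The other 5 members called between striatum and midbrain, Cd68, Gaa, Ctsf, Tpp1 and Mcoln1, were higher in striatum. Cd68 encodes macrosialin, a heavily glycosylated lysosomal membrane protein widely used as a marker of phagocytes. It ran from 846 to 1043 CPM in midbrain (median 910.0), from 1013 to 1331 in striatum (median 1214) and from 790.1 to 1181 in PFC (median 1072). Of the 12 striatum samples, 11 were above every midbrain sample. The log2 fold change was 0.36 ± 0.055 (SE, edgeR adjusted p = 3.14e-05), against 0.15 ± 0.056 in PFC (edgeR adjusted p = 0.104).

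Gaa encodes acid alpha-glucosidase, which breaks down glycogen in the lysosome. It rose from a range of 88.6 to 149 CPM in midbrain (median 117) to 115 to 199 in striatum (median 159.7), with 109.8 to 167 in PFC (median 127). The log2 fold change in striatum was 0.42 ± 0.093 (SE, edgeR adjusted p = 0.00396), higher in 12 of 12 mice. In PFC it was 0.17 ± 0.095 (edgeR adjusted p = 0.382), and 0.0323 with mouse as a block. Mouse accounted for 51.1% of its sum of squares and region for 37.2%. Mouse has more levels than region and takes a larger share by chance alone. These shares therefore do not show which of them had the larger effect on Gaa.

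In the model of sex and region, Ctsf, Tpp1 and Mcoln1 gave smaller or less stable calls. Ctsf (cathepsin F) ran from 401 to 498 CPM in midbrain (median 440.1), 453 to 522 in striatum (median 479.6) and 418 to 497 in PFC (median 458). Its log2 fold change in striatum was 0.14 ± 0.038 (SE, edgeR adjusted p = 0.0154), lost without mouse 6, 8 or 12. Tpp1, for tripeptidyl peptidase 1, ran from 372 to 547 CPM in midbrain (median 436), 437 to 550.4 in striatum (median 488) and 429.9 to 564 in PFC (median 485). Its log2 fold change was 0.18 ± 0.055 (SE) in striatum (edgeR adjusted p = 0.0384) and 0.17 ± 0.056 in PFC (edgeR adjusted p = 0.0667, with mouse as a block 0.00128). It was higher than midbrain in 12 of 12 and 11 of 11 mice. Mcoln1, for the calcium channel mucolipin 1, ran from 41.5 to 62.8 CPM in midbrain (median 50.6), 51.5 to 70.5 in striatum (median 57.9) and 40.1 to 60.7 in PFC (median 52.9). Its log2 fold change in striatum was 0.24 ± 0.074 (SE, edgeR adjusted p = 0.0381), higher in 12 of 12 mice, with a region effect overall at an edgeR adjusted p of 0.053. The striatum calls of Tpp1 and Mcoln1 were each lost when any 1 of 10 mice was left out (adjusted p up to 0.0877 and 0.0798) and without the midbrain sample of mouse 6 (0.0588 and 0.0667). That of Tpp1 was also lost without the striatum sample of mouse 3 (0.0563). The region effects overall of Ctsf and Tpp1 (edgeR adjusted p = 0.0347 and 0.046) were lost without that sample (0.0505 and 0.0638), without the midbrain sample of mouse 6 (0.0646 and 0.0747), and without any 1 of 9 and of 11 mice. With mouse as a block, the edgeR adjusted p in striatum was 0.00542 for Ctsf, 3.51e-04 for Tpp1 and 3.60e-04 for Mcoln1. For region overall the block gave edgeR adjusted p of 0.013, 3.1e-04 and 3.43e-04.

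**Figure D4:**
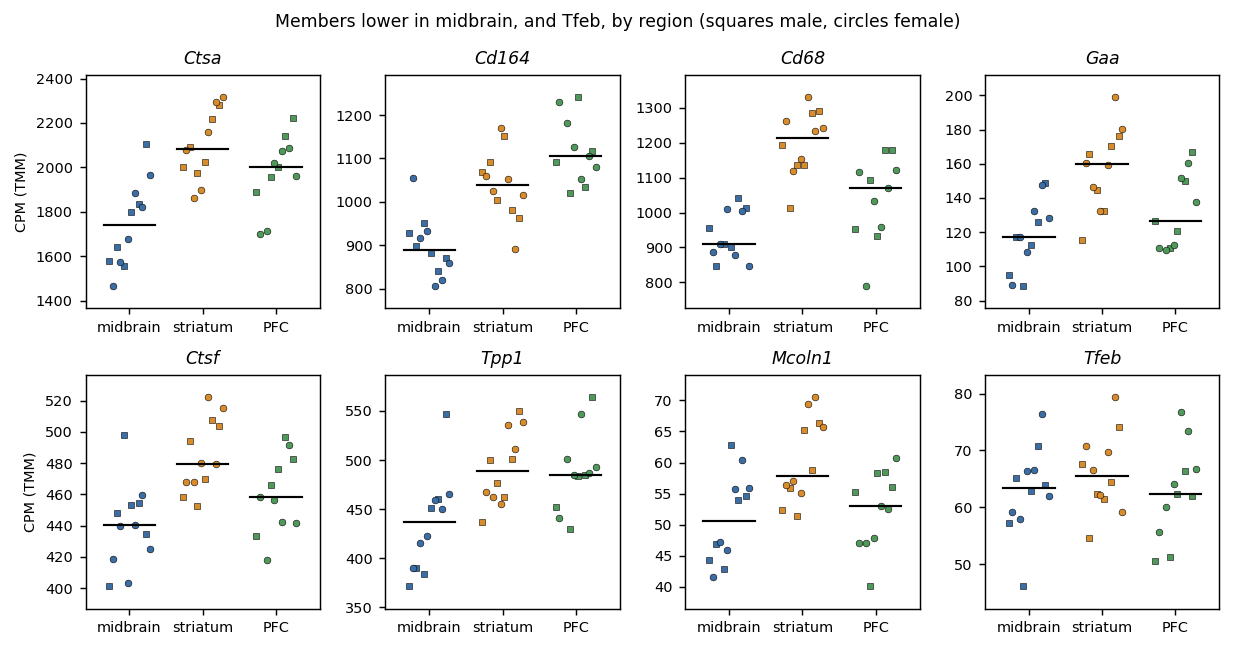
CPM (TMM-scaled, axes not starting at 0) of the 7 members called higher in striatum than in midbrain, and of Tfeb, per sample, with squares for males, circles for females and a line at the median. For Cd68, 11 of 12 striatum samples lie above all midbrain samples, while the 3 regions of Tfeb overlap over most of their range.

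Markers of other cells moved with the regions. The astrocyte list had medians of 250.5 CPM in midbrain, 405 in striatum and 355 in PFC, and 2 of its 10 genes were called in PFC and 4 in striatum, all higher than in midbrain. The neuron list had medians of 5.84, 9.81 and 13.5 CPM, with Gad2 and Th at 0 in 10 and 25 of the 35 samples. The oligodendrocyte list had medians of 413, 458 and 296 CPM. The border macrophage list had medians of 6.86, 6.22 and 7.34 CPM, and 1 of its 7 genes was called, Ms4a7, which like the 4 cathepsins above was higher in midbrain (medians of 2.26, 0.426 and 0.109 CPM, with log2 fold changes of -5.39 in PFC and -3.27 in striatum at edgeR adjusted p of 0.0013 and 0.0364). Cd163 of that list was at 0 in 25 of the 35 samples. The monocyte and neutrophil list had medians of 2.53, 3.55 and 5.40 CPM, and 2 of its 7 genes were called in each comparison. Ccr2 was higher in PFC (log2 1.59) and in striatum (0.95) than in midbrain. The other call in PFC was Ngp, higher (log2 4.71), and the other in striatum was Ly6c2, lower (-3.92). Ngp and Ly6c2 were at 0 in 12 and 18 of the 35 samples. With an index of the neuron, astrocyte, oligodendrocyte and endothelial markers in the model, the 8 PFC calls remained 8. The share of all genes was 6.52% without the index and 7.18% with it. The striatum calls fell from 11 to 6 as all genes fell from 7.45% to 3.45%. The 6 were Ctsa, Ctsc, Ctsh, Ctss, Cd68 and Cd164, and those lost were Ctsf (edgeR adjusted p = 0.166), Ctsl (0.123), Tpp1 (0.245), Gaa (0.129) and Mcoln1 (0.204). Beside the values without the index, their log2 fold changes were 0.11 against 0.14 for Ctsf, -0.18 against -0.18 for Ctsl, 0.15 against 0.18 for Tpp1, 0.28 against 0.42 for Gaa and 0.21 against 0.24 for Mcoln1. Microglial markers themselves differed too: Fcrls and Siglech were higher in PFC and striatum than in midbrain (log2 fold changes of 0.63 and 0.25 in PFC, 0.37 and 0.31 in striatum). The part of other cells' RNA in the fold changes of single members was not tested beyond this index and the fits without single samples.

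Between striatum and PFC, edgeR called none of the 42 members (all genes, 0.391% higher and 0.179% lower in striatum). At an unadjusted p under 0.05 there were 9 members, or 21.4% of them, beside 11.6% of all genes. DESeq2 called 3, Ctsz, Cd68 and Atp6v1a, beside 1.61% of all genes. With mouse as a block edgeR called 5, beside 2.89% of all genes. Ctsz (cathepsin Z, a carboxypeptidase) ran from 1646 to 2587 CPM in midbrain (median 2011), 1998 to 2593 in striatum (median 2152) and 1649 to 2377 in PFC (median 1924), and was higher in striatum than in PFC in 11 of 11 mice. Its log2 fold change was 0.24 ± 0.067 (SE, edgeR adjusted p = 0.0742, with the block 1.28e-04). Ctsz was also higher in striatum than in midbrain in 12 of 12 mice, by a log2 fold change of 0.18 ± 0.065 (SE, edgeR adjusted p = 0.0938, with the block 6.02e-04). Atp6v1a, the catalytic subunit of the proton pump, went the other way: 89.0 to 126 CPM in striatum (median 103), 96.7 to 152 in PFC (median 119) and 102 to 124 in midbrain (median 113), with a log2 fold change of -0.21 ± 0.058 (SE, edgeR adjusted p = 0.0866, with the block 0.0102). Both had a region effect overall (edgeR adjusted p = 0.0308 and 0.0493). That of Ctsz was lost without mouse 2, 4, 8, 9, 10 or 12 (adjusted p up to 0.0869). That of Atp6v1a was lost without any 1 of 9 mice, all but 3, 9 and 10 (up to 0.161), without the midbrain sample of mouse 6 (0.0572) and without the PFC sample of mouse 1 (0.0501). Under the block Cd68, Gaa and Mcoln1 were also called, with log2 fold changes of 0.23, 0.24 and 0.21, at edgeR adjusted p of 0.00434, 0.0121 and 0.00923. Without the striatum sample of mouse 3, edgeR called Cd68 (adjusted p = 0.0422) and Atp6v1a (0.0466).

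The remaining 27 members were not called for region or for a pair of regions in the edgeR model of sex and region. Of these, Lamp1, Npc2, Grn and Laptm5 were called in a pair with mouse as a block. Several of the most abundant are among them. Ctsd ran from 22381 to 29911 CPM in midbrain (median 25552), 21662 to 30884 in striatum (median 25652) and 21178 to 27414 in PFC (median 25162), with log2 fold changes from midbrain of -0.048 ± 0.055 (SE) in PFC and 0.016 ± 0.054 in striatum. Mouse accounted for 76.5% of its sum of squares and region for 4.46%, where mouse, with more levels, takes a larger share by chance alone. Lgmn ran from 3597 to 4406 CPM in midbrain (median 3821), 3459 to 3996 in striatum (median 3717) and 3084 to 4606 in PFC (median 3649), with log2 fold changes of -0.068 ± 0.046 and -0.048 ± 0.044. Ctsb (cathepsin B) ran from 4655 to 6734 CPM over all samples and Ctso (cathepsin O) from 198 to 304 CPM.

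Of the glycosidases without a call, Hexa (the alpha subunit of beta-hexosaminidase) lay between 1243 and 1751 CPM, Man2b1 (lysosomal alpha-mannosidase) between 618 and 1134, and Naglu (alpha-N-acetylglucosaminidase) between 189 and 302. Neu1 (neuraminidase 1), Manba (beta-mannosidase) and Gla lay lower, between 71.7 and 122, between 36.7 and 69.2 and between 3.63 and 12.3 CPM. At its level the standard error of Gla was 0.17 on the log2 scale, the largest of the set. Man2b1 had log2 fold changes of -0.19 ± 0.077 (SE) in PFC (edgeR adjusted p = 0.169) and 0.034 ± 0.075 in striatum. In mice 7 to 12 alone it was called lower in PFC, at -0.31.

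None of the 7 lipid hydrolases, carriers and cofactors was called between regions in edgeR or in DESeq2. At an unadjusted p under 0.05 in edgeR there were 4 of the 7 in striatum against midbrain (all genes, 20.1%) and 0 in PFC against midbrain (all genes, 17%). Psap, the precursor of the saposins that help sphingolipid hydrolases, lay between 2093 and 2893 CPM over all samples. Grn (progranulin, which is cleaved to granulins in the lysosome) lay between 2169 and 2875. Asah1 (acid ceramidase) ranged from 651 to 910.4 CPM, Npc2 (a soluble cholesterol carrier) from 526 to 763 and Ppt1 (palmitoyl-protein thioesterase 1) from 553 to 714. Lipa (lysosomal acid lipase) ranged from 139 to 193 CPM and Npc1 (the membrane partner of Npc2 in cholesterol export) from 55.1 to 107. With mouse as a block, Grn was higher (edgeR adjusted p = 0.00872) and Npc2 lower (0.0212) in striatum than in midbrain, with log2 fold changes of 0.12 and -0.12.

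Of the membrane proteins, the main structural glycoproteins Lamp1 and Lamp2 lay between 1578 and 2252 CPM and between 818 and 1055 CPM. Their log2 fold changes in PFC were -0.097 ± 0.046 and -0.10 ± 0.041 (SE), with edgeR adjusted p of 0.268 (with the block 0.0488) and 0.168. Laptm5, a haematopoietic lysosomal membrane protein, ranged from 3877 to 5726 CPM and was higher in striatum than in midbrain in 11 of 12 mice, at an edgeR adjusted p of 0.0856 (with the block 0.0210). Its relative Laptm4a lay between 367 and 698 CPM, the tetraspanin Cd63 between 314 and 483 and Scarb2 (LIMP-2, the carrier of beta-glucocerebrosidase) between 197 and 287. The other proton pump genes were Atp6ap1, an accessory subunit, at 688 to 906 CPM, Atp6v0c, of the membrane ring, at 39.7 to 70.2, and Atp6v0d1, which links the membrane and cytosolic parts of the pump, at 33.3 to 75.2. Reads of Atp6v0c and Cd63 may be shared with annotated pseudogenes.

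Tfeb ran from 46.2 to 76.4 CPM in midbrain (median 63.4), from 54.6 to 79.3 in striatum (median 65.5) and from 50.6 to 76.7 in PFC (median 62.3). Its log2 fold change from midbrain was -0.013 ± 0.070 (SE) in PFC and 0.070 ± 0.068 in striatum, with edgeR adjusted p of 0.969 and 0.635. Of the 12 members called in a pair of regions that have a promoter entry, 6 held CACGTG. Of the 26 without a call in a pair, 6 did, among them Atp6v1a, which was called for region alone. A link between the E-box and the calls was not tested. Among the windows shown above, those of Ctsf, Gaa, Cd164 and Mcoln1 belong to members higher in striatum than in midbrain and those of Ctsl and Glb1 to members higher in midbrain than in PFC.

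A list of 87 other lysosomal genes, of which 83 were in the table, gave 5 higher and 4 lower in PFC than in midbrain. That was 10.8% of the 83, beside 6.52% of all genes (2.88% higher and 3.64% lower). Naaa (an amidase for N-acylethanolamines) was lowest in PFC, with medians of 83.1 CPM in midbrain, 64.9 in striatum and 48.7 in PFC, and log2 fold changes from midbrain of -0.84 ± 0.082 (SE, edgeR adjusted p = 2.84e-09) and, in striatum, -0.36 ± 0.080 (edgeR adjusted p = 0.00334). It was the gene of this list called higher in striatum than in PFC besides Nagpa, with a log2 fold change of 0.48 ± 0.082 (edgeR adjusted p = 0.00153) against 0.25 ± 0.056 (edgeR adjusted p = 0.0257). Arsb (arylsulfatase B) and Gm2a (the GM2 activator) were also lower in PFC than in midbrain, by log2 fold changes of -0.43 and -0.35. The other lower gene was Gpnmb, with medians of 1.11 CPM in midbrain and 0 in PFC. Higher in PFC were Tmem192 (0.27), Flcn (0.26), Ctns (the cystine transporter, 0.26) and Dnase2a (acid deoxyribonuclease, 0.23), and Lamp5, whose median was 0 CPM in midbrain and 0.13 in PFC. Gpnmb, Lamp5 and Dnase2a are named to complete these counts, after their values were seen.

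In striatum 9 of the 83 were higher and 3 lower than in midbrain. That was 14.5% of the 83, beside 7.45% of all genes (4.18% higher and 3.27% lower). Dnase2a had the largest rise among those with a mean of at least 8 CPM, with medians of 86.2 CPM in midbrain and 116 in striatum and a log2 fold change of 0.43 ± 0.061 (SE, edgeR adjusted p = 1.04e-05). Idua (alpha-L-iduronidase) and Atp6v0a1 (a membrane subunit of the proton pump) followed at 0.36 and 0.32. Gm2a was lower by -0.19, and Gpnmb was again the third lower gene. Of the 15 other pump subunits, 2 rose in striatum, Atp6v0a1 and Atp6ap2 (log2 0.14). The second was named after its value was seen. The most abundant of the 4 cathepsin inhibitors, Cst3 (cystatin C), had medians of 51063 CPM in midbrain, 46762 in striatum and 49529.9 in PFC, with log2 fold changes from midbrain of 0.0082 ± 0.079 (SE) in PFC and -0.062 ± 0.077 in striatum.

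No member differed by sex in edgeR (all genes, 0.146% higher and 0.193% lower in females). At an unadjusted p under 0.05 there was 1 member, Naglu, with a log2 difference, female minus male, of -0.11 ± 0.046 (SE, p = 0.0266 in edgeR, adjusted p = 0.524). DESeq2 called 0 members and had 1 with an unadjusted p under 0.05. The largest difference was that of Tfeb, 0.11 ± 0.056, with mean levels of 66.3 CPM in females and 61.4 in males (edgeR adjusted p = 0.631). With counts summed per mouse the differences of Naglu and Tfeb were -0.099 (edgeR p = 0.0987) and 0.11 (edgeR p = 0.160). An effect of sex that depended on region was called for 0 members and 0% of all genes in edgeR. At an unadjusted p under 0.05 there were 0 members, with a lowest edgeR p of 0.209, and 2.98% of all genes. DESeq2 called 0 members and 1 gene in all.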

How the data were processed

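RNA from sorted tdTomato+ cells was made into cDNA libraries and sequenced. Per the labels and the study's methods, the authors trimmed reads with Trimmomatic, aligned them to GRCm38 with HISAT2, removed genes under 1 CPM in every subgroup of sex and region, and deposited raw counts per gene. Yet the count table holds genes under 1 CPM in every sample, such as Ctsk (at most 0.355) and Igf2r (at most 0.422). How the filter was applied is therefore not clear, and the shares of all genes include such genes. The counting tool, annotation release, use of strand and treatment of multiply mapped reads are not given in the sources used here. No molecular identifiers were used, so the 3-count floors cover counting error only. Gene symbols came from GENCODE M21.

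Counts of all 21236 genes and 35 samples were fitted in edgeR 4.0.16 (R 4.3.3) with TMM factors, a robust quasi-likelihood F-test and sex and region as terms. P-values were Benjamini-Hochberg adjusted over all genes and called under 0.05. CPM values used the TMM-scaled library sizes. Region by sex was tested as an interaction. Alternatives used DESeq2 1.42.0, RLE size factors, filterByExpr, mouse as a block, a marker index, mice 1 to 6 or 7 to 12 alone (a split taken from earlier results, for which the labels name no batch), and each mouse left out. The 3 regions of a mouse come from 1 animal and are paired. Deviations from group means correlated at a mean r of 0.225 over 34 pairs from 1 mouse and -0.0431 over 170 pairs from different mice (12297 genes). The main model treats samples of 1 mouse as independent. The scripts were tested on simulated data.

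The members and gene lists were chosen with earlier results of these data known. Every member was named. Those called, Ctsa, Cd164, Tfeb and the 3 most abundant per kb received levels by region, and in the list of other lysosomal genes the rule allowed values for at most 3 per direction and pair whose mean reached 8 CPM. Gpnmb, Lamp5, Atp6ap2 and, for PFC, Dnase2a were added after their values were seen. Not found in the table were Mcoln2, Mcoln3, Atp6v0d2, Cst6 and Lyve1. Motifs were searched in RefSeq promoters (GRCm38.p6).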

Additional observations from a re-analysis of the deposited data

How the results depend on the processing

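Of 748 values of 34 named results under the alternatives, 0 changed direction, 72 lost their call and 25 gained one. Only results called in the main fit, 8 for PFC and 11 for striatum against midbrain, could lose a call, so the 72 are not a share of all 748. The named results between regions were each called in the main fit or with mouse as a block, and those for sex were Naglu and Tfeb. Of the gains, 13 were under that block and follow from this choice of results. All alternatives reuse the same samples, so an unchanged direction is not independent evidence. The members with an effect of region numbered 13 in the main fit, beside 8.89% of all genes. They numbered 8 with the marker index in the model (all genes, 6.29%) and 7 in mice 1 to 6 (2.41%). At an adjusted p under 0.01 they numbered 8. Between PFC and midbrain 8 members, beside 6.52% of all genes, became 5 in mice 1 to 6, beside 1.82%. By the study's rule (unadjusted p, fold over 1.2, region effect), applied here to the edgeR fits where the study used DESeq2, they became 5. Ctsa was not among these 5, at a fold of 1.136. Between striatum and midbrain 11 members, beside 7.45% of all genes, became 6 with the index, beside 3.45%. They became 6 in mice 1 to 6 (all genes, 1.02%), 6 in mice 7 to 12 (5.69%) and 5 by the study's rule. Cd164 was not among the last 5, at a fold of 1.159, and its log2 fold change between striatum and PFC was -0.10. The study reports Ctsa as lower in midbrain than in both other regions. It reports Cd164 as a gradient, highest in PFC and lowest in midbrain. By its rule these fits did not return either pattern in full. Between striatum and PFC 0 became 3 in DESeq2 (all genes, 1.61%) and 5 with mouse as a block (2.89%). Without the striatum sample of mouse 3 there were 2 (all genes, 0.598%). With each mouse left out in turn, the counts ran from 9 to 13 for region (all genes, 6.54 to 8.73%). They ran from 6 to 9 for PFC against midbrain (5.39 to 6.24%). For striatum against midbrain they ran from 7 (without mouse 12) to 11, beside 5.19 to 7.72% of all genes. For striatum against PFC they ran from 0 to 1 (without mouse 3 or mouse 11), beside 0.179 to 0.593%. For sex they ran from 0 to 0. With mouse as a block the counts were 18 for region, 11 for PFC and 16 for striatum against midbrain, with 14%, 8.06% and 11.7% of all genes. In mice 1 to 6 alone the calls of Ctsl, Ctss and Glb1 in PFC and of Ctsf, Ctsl, Cd68, Cd164 and Mcoln1 in striatum were lost, and in mice 7 to 12 those of Ctsa and Gusb in PFC and of Ctsf, Ctsh, Ctsl, Tpp1 and Mcoln1 in striatum. Promoters with an E-box fell from 12 to 6 with TCACGTGA. The 2 alternatives without the midbrain sample of mouse 6 (10, 7 and 8 members for region, PFC and striatum) and without the PFC sample of mouse 1 (8 for PFC, 11 for striatum) were chosen after seeing the data. Without the first sample 7.93%, 6.06% and 6.47% of all genes were called, and without the second 6.42% and 8.1%. Sex could not be fitted with mouse as a block, since each mouse has 1 sex, so counts were summed per mouse. The cause of these changes was not tested, except that the sets of 6 mice and the fits without a mouse have fewer samples.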
